A study of Mus musculus with 2 samples.

Results

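The mitochondrial respiratory chain was followed through its nuclear and its mitochondrially encoded genes in CD45+ lung cells from 2 single-cell RNA libraries, named PBS and DT. Members were all genes of the deposited tables whose symbol begins with Nduf (complex I and its assembly factors), Cox4 to Cox8 (complex IV), Uqcr (complex III), Atp5 (complex V, the ATP synthase) or mt- (the mitochondrial genome), together with Sdha, Sdhb, Sdhc and Sdhd (complex II). There were 115 members among 16184 genes, of which 100 are nuclear and 15 are mt-. The nuclear members comprised 41 of complex I, 8 complex I assembly factors, 4 of complex II, 10 of complex III, 17 of complex IV and 20 of complex V. Of the nuclear symbols, 7 carry the suffix -ps that marks a pseudogene name. The mt- members comprised 10 protein-coding genes, 2 ribosomal RNAs and 3 transfer RNAs. The symbols mt-Co2, mt-Atp6 and mt-Atp8 were not analysed here.

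All mice were Scgb1a1cre /iDTR animals, in which a tamoxifen-inducible Cre driven by Scgb1a1, a club cell gene, switches on a diphtheria toxin receptor, and all had received HKP1 lung tumour cells by tail vein. Tamoxifen was given to both groups at 2 mg per 20 g on 5 days (days 3 to 7), and the anti-PD-1 antibody RMP1-14 at 250 µg per mouse on day 6. The DT group then received diphtheria toxin, 600 ng per 20 g in 2 doses on days 8 and 9, and the PBS group received the vehicle in its place. Radiation of 4 Gy followed daily on days 10 to 12 (3 days) in both groups, and lungs were taken 24 to 48 h later. Live CD45+ cells of 4 mice per group were pooled in 1 library per group, and the labels do not trace cells back to single mice, so no difference below has a replicate check and none carries a p-value. Intervals are 95% and cover counting error only. The control animals carry the same Cre, the same tumours, the same antibody and the same radiation, so the comparison is of toxin against vehicle on that background.

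The respiratory chain passes electrons from NADH (complex I) and succinate (complex II) through complex III to oxygen at complex IV, pumps protons across the inner mitochondrial membrane on the way, and lets complex V make ATP from the gradient. Complexes I, III, IV and V are built from subunits of both genomes, while complex II is wholly nuclear. The mitochondrial genome is read as long transcripts that are cut at transfer RNAs, and its ribosomal RNAs serve the mitochondrial ribosome that translates the coding members. Neutrophils are known to hold few mitochondria and to live largely on glycolysis, whereas macrophages and dividing lymphocytes use oxidative phosphorylation more.

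Not every molecule of a mitochondrial gene lands on its mt- column in these tables. A stretch of mouse chromosome 1 carries copies of the mitochondrial genome, annotated as the pseudogenes Gm28438, Gm28437, Gm10925, Gm28661 and Gm29216, on the minus strand between positions 24612775 and 24616197 (GRCm38, GENCODE vM21). In the PBS library these 5 columns held 1036580 UMIs (unique molecular identifiers, one per captured molecule) against 775543 on all mt- columns. The DT library gave 857863 against 669906. The sequences show how alike the copies are. Gm28437 (chr1:24613189-24613971) and mt-Co3 (chrM:8607-9390), a core subunit of complex IV, were identical at 783 of 783 aligned bases, and the last 60 of these are printed here for both:
mt-Co3 (chrM:9330-9389, plus strand): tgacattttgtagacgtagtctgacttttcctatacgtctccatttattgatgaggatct
Gm28437 (chr1:24613189-24613248, minus strand): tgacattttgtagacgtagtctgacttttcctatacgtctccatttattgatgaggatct
Gm29216 (chr1:24615706-24616197) matched mt-Co1 (chrM:5328-6872), the catalytic subunit of complex IV, at 486 of 492 bases. The 6 differences, in capitals, all lie in the first bases of the copy (T1056A, C1057T, A1059G, A1060G, C1062A and A1066T, the mt-Co1 base first, counted from the start of its transcript):
mt-Co1 (chrM:6381-6440, plus strand): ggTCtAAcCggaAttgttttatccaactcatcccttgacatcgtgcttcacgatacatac
Gm29216 (chr1:24616138-24616197, minus strand): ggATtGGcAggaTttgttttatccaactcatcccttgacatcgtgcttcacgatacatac
Gm28438 (chr1:24612775-24613119) matched mt-Nd3 (chrM:9459-9806) at 344 of 345 bases, with T3C the single difference. Gm28661 matched the mt-Co2 transcript at all 681 bases aligned, and Gm10925 the mt-Atp6 transcript at all 678. Reads from such stretches cannot be told apart by sequence, and the mt- column of such a gene need not hold all of its UMIs. The column mt-Co3 held 42 UMIs in PBS and 35 in DT, while its copy Gm28437 held 243876 and 193602. The column mt-Co1 held 18126 and 16181, against 195747 and 177877 for Gm29216. The column mt-Nd3 held 8093 and 6936 UMIs beside 9128 and 6096 for Gm28438, fewer than its copy in PBS and more in DT. No column of a copy was among the members, and mt-Co3 is given no ratio below.

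**Figure D1:**
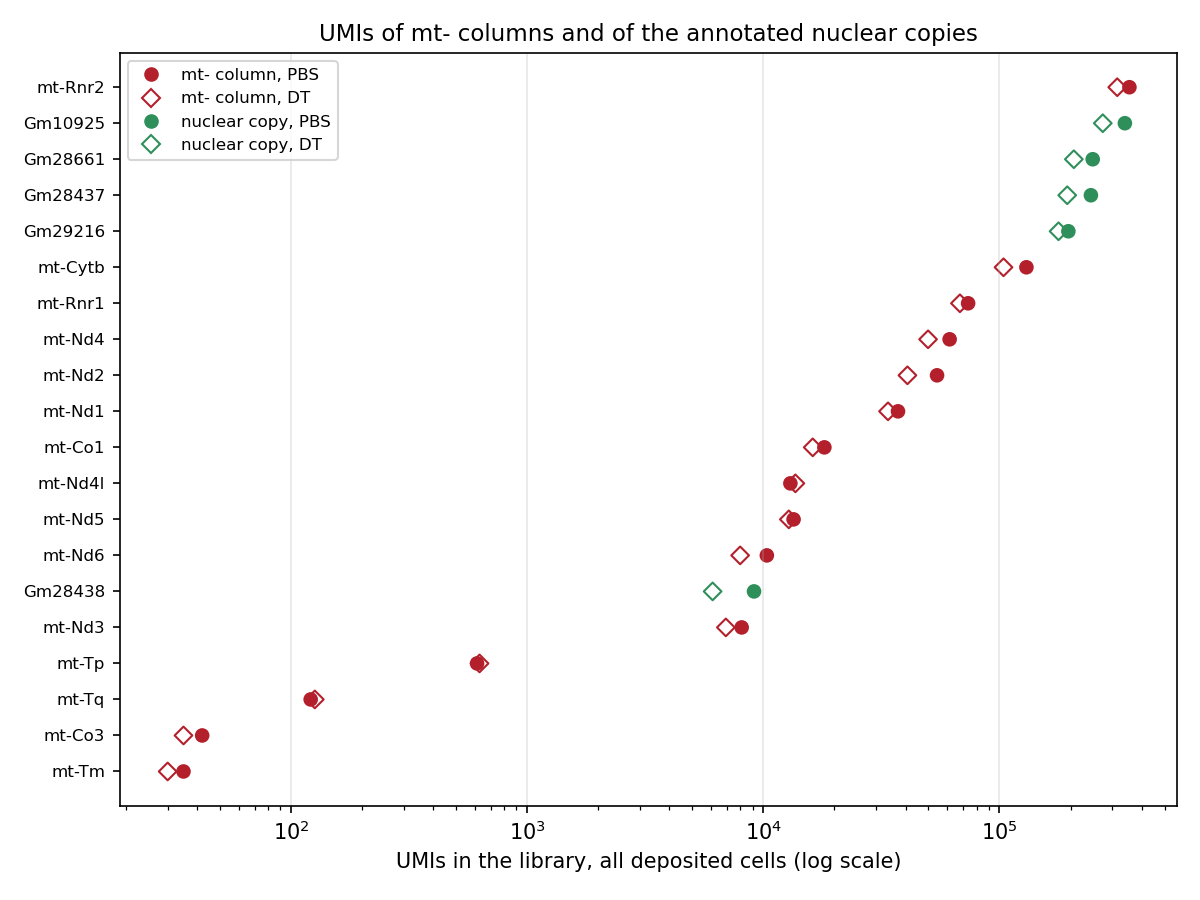
UMIs over all deposited cells assigned to mt- columns and to the chromosome 1 copies in the PBS and DT libraries, on a log axis. The column mt-Co3 holds 42 and 35 UMIs, while its copy Gm28437 holds 243876 and 193602.

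On the nuclear side, 73 of the 100 members had a promoter window in the RefSeq table (GRCm38.p6, 250 bases before to 50 after the start). Motifs of 3 factors known for nuclear mitochondrial genes were searched as exact letters on both strands. These were GCATGCGC for NRF1, CCGGAAGT for ETS factors such as GABP, and AAGATGGC for YY1. The NRF1 letters, whose strands overlap in a palindrome 2 bases apart, stood in 12 of 73 member windows (16.4%), in 2.81% of all 27025 windows and in 5.47% of those of genes with at least 100 UMIs. YY1 letters stood in 9 of 73 (12.3%), against 2.88% and 4.97%. ETS letters stood in 5 of 73 (6.85%), against 4.0% and 8.90%. Any of the motifs was held by 25 of 73 member windows (34.2%), by 18.01% of windows of genes with at least 100 UMIs, and by 27 of 67 windows (40.3%) of mitochondrial ribosome genes. The YY1 letters were unevenly spread over the complexes, with 7 of 32 complex I windows, 1 of 14 complex V windows and 0 of 12 complex IV windows. In the 9 members with a YY1 match it began after the start site in all 9, at base 11 to 39, whereas 335 of 800 matches (41.9%) over all promoters lay after the start. Printed with the match in capitals, on the minus strand, is the member with the most UMIs among those with an NRF1 or ETS match wholly within the 120 bases before the start, or with a YY1 match anywhere. Cox8a has more UMIs than Uqcrh, but its 2 ETS matches do not lie wholly before the start.
Atp5k (subunit e of ATP synthase, NRF1, chr5:108434400-108434519): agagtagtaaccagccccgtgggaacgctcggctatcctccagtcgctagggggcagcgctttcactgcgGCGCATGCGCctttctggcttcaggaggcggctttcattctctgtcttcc
Uqcrh (the hinge protein of complex III, ETS, chr4:116075071-116075190): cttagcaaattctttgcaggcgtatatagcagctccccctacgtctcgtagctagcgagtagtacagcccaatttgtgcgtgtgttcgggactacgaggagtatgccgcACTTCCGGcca
Atp5j2 (subunit f of ATP synthase, YY1, chr5:145191503-145191526): aggacttcAAGATGGCgtcactcg
A match describes these windows only and says nothing of binding.

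The PBS table held 5702 cells with 31089434 UMIs in all and that of DT 6203 cells with 27896059, at a median of 3719 and 2909 UMIs per cell, and 8 cell barcodes occurred in both. After cells with under 200 genes or 500 UMIs were left out, 5651 and 5896 remained. The club cell transcript Scgb1a1, from the cells the toxin targets, had 1347 UMIs in PBS and 304 in DT (43.4 and 10.9 CPM, UMIs scaled to a common library total). By transcripts tied to sex, 2472 PBS cells were called male and 362 female, against 903 and 1926 in DT, so the sex of the cells and the toxin cannot be told apart in pooled values. No cell exceeded 8.0% mt- UMIs in either library. With the chromosome 1 copies counted in, 1405 and 1318 cells did.

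Cells were placed in 8 lineages by detected genes: Cd3e (T cells), Ncr1 (NK cells), Cd79a (B cells), Csf3r with S100a8 (neutrophils), Ly6c2 with Ccr2 (monocytes), C1qa (macrophages), Marco (alveolar macrophages) and Siglech (plasmacytoid dendritic cells). A cell that met the T, NK, B or neutrophil gate and any other gate was left out, as was one with Siglech and C1qa or Marco. Cells with Marco and C1qa were placed as alveolar macrophages. Cells of the monocyte gate that also had C1qa, Marco or Siglech were placed by that gene. In each library 4114 cells were placed. The gates held 1049 PBS and 962 DT T cells, 229 and 193 NK cells, 1381 and 1059 B cells, 797 and 1189 neutrophils, 243 and 245 monocytes, 296 and 400 macrophages, 51 and 19 alveolar macrophages, and 68 and 47 plasmacytoid cells. Each gate had UMIs of every gene of its own marker list, but this does not set a gate apart. The PBS T gate also had UMIs of all 6 genes of the NK, B, neutrophil, monocyte and macrophage lists. By summed CPM the own list was the highest in each gate and library. Some other lists were high too. The alveolar list summed to 2956 (PBS) and 3272 (DT) CPM in monocytes, against 6291 and 5385 for their own list. In PBS plasmacytoid cells the monocyte list gave 4832 against 6962 for their own. The depth differed widely between gates, from a median of 2322 and 2138 UMIs per cell in neutrophils to 8376 and 7868.5 in macrophages.

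Nuclear members made up the smallest share of RNA in neutrophils and the next smallest in B cells, in both libraries. In neutrophils they took 0.976% of UMIs in PBS and 0.973% in DT. B cells gave 1.336% and 1.252%, and T cells 1.82% and 1.84%. NK cells stood next with 1.92% and 1.97%. The other 4 gates lay close together at 1.99% to 2.29%, and their order changed between libraries: plasmacytoid cells were highest in PBS and macrophages in DT. Monocytes gave 2.15% and 2.08%, macrophages 2.08% and 2.17%, alveolar macrophages 1.99% and 2.12%, and plasmacytoid cells 2.29% and 2.12%. The highest gate exceeded the lowest 2.35-fold in PBS and 2.23-fold in DT. The low neutrophil share was common to most members: of 83 nuclear members with at least 1000 UMIs over all cells, 63 were lowest in neutrophils in both libraries. It was not particular to the respiratory chain. Cytosolic ribosomal protein genes were also lowest in neutrophils, at 2.76% of UMIs in PBS and 2.49% in DT. Alveolar macrophages were next for these genes, at 5.51% and 5.43%.

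Protein-coding mt- members were also lowest in neutrophils, but the rest of their order was another one. B cells, second lowest for nuclear members, were among the highest 2 gates for coding mt- members, at 1.43% in PBS and 1.53% in DT. Alveolar macrophages gave 1.57% and 1.32%, plasmacytoid cells 1.21% and 1.17%, T cells 1.18% and 1.14%, and macrophages 1.14% and 1.12%. NK cells and monocytes were lower, at 0.936% and 0.862%, and 0.916% and 0.924%. Neutrophils had 0.520% and 0.373% when pooled, but 0.156% and 0.122% in the median cell and 0.412% and 0.305% at the third quartile, so the pooled share lay above that of most of their cells. All 9 coding mt- members with at least 1000 UMIs were lowest in neutrophils in both libraries. Per UMI of a nuclear member, B cells therefore held 1.07 and 1.22 UMIs of coding mt- members, monocytes 0.427 and 0.444, and neutrophils 0.533 and 0.383. With the chromosome 1 copies added, the coding share was still lowest in neutrophils (2.04% and 1.53%) and stood at 5.72% and 5.99% in B cells.

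The mitochondrial ribosomal RNAs did not share the low place of neutrophils. Together mt-Rnr1 and mt-Rnr2 took 1.93% of neutrophil UMIs in PBS and 1.76% in DT. B cells gave 1.75% and 1.94%, T cells 1.56% and 1.47%, and macrophages 0.912% and 0.902%, the lowest in both libraries. As a share of all mt- UMIs, ribosomal RNA was 78.7% and 82.4% in neutrophils, 56.9% and 56.3% in T cells and 44.3% and 44.6% in macrophages. How these RNAs were primed in the 3′ protocol was not measured. The transfer RNAs mt-Tm, mt-Tp and mt-Tq had 35 and 30, 613 and 628, and 121 and 126 UMIs over all cells, too few to compare gate by gate.

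**Figure D2:**
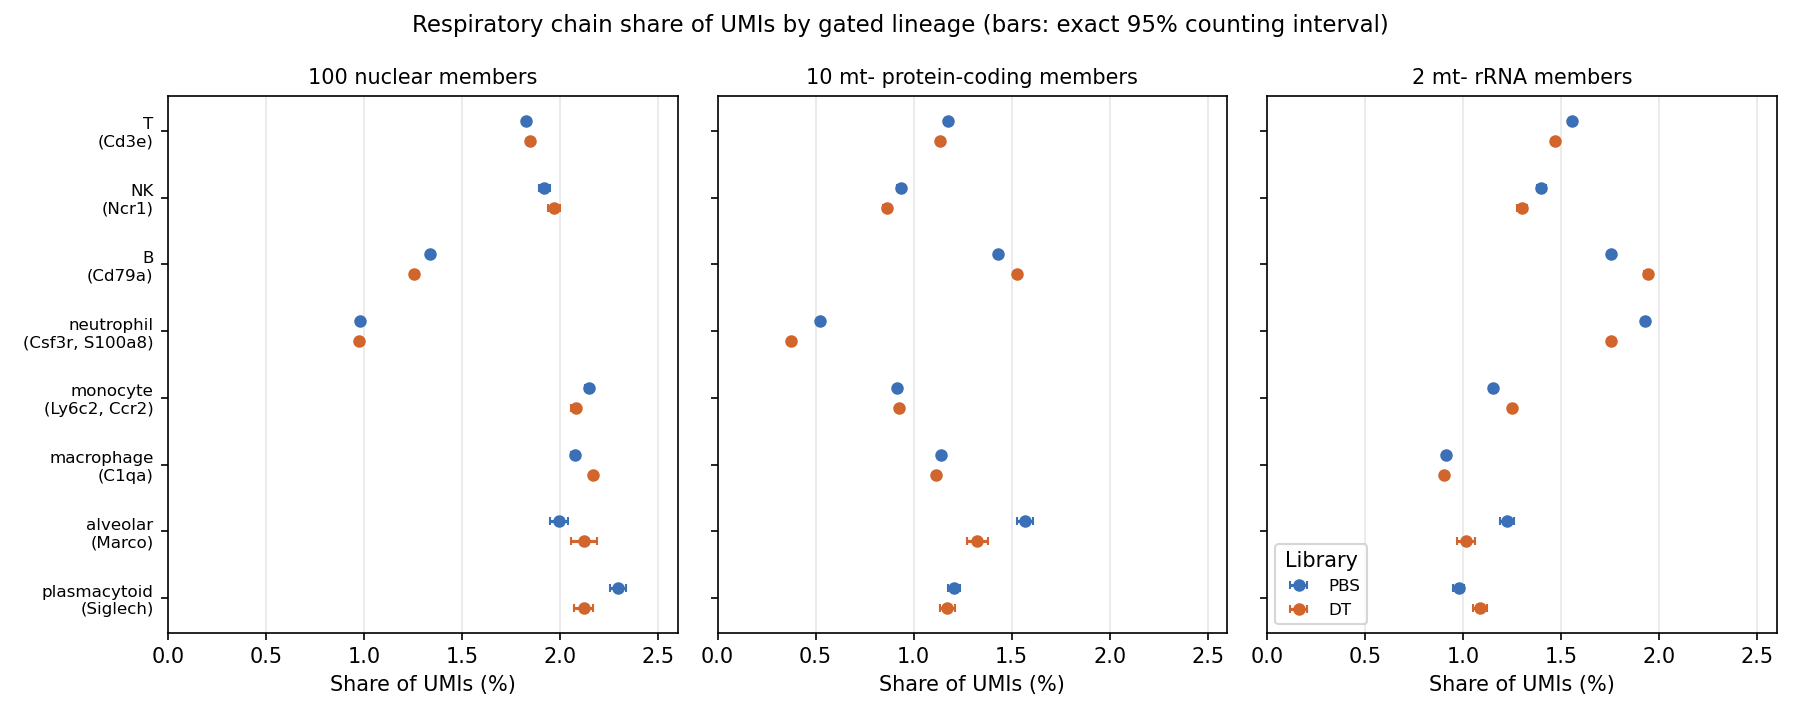
Percent of all UMIs from nuclear, protein-coding mt- and ribosomal RNA mt- members in each gated lineage, PBS and DT libraries, with 95% counting intervals. Neutrophils are lowest for the nuclear and the coding mt- members, and B cells are low for the first and high for the second.

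The balance between the complexes lay in narrow ranges over the gates. Complex I supplied 28.7% to 30.6% of nuclear UMIs over all 8 gates and both libraries, complex IV 26.2% to 31.5%, complex V 24.2% to 28.7%, complex III 9.94% to 11.8% and complex II 1.98% to 2.91%. Neutrophils had the highest complex IV share in both libraries (31.1% and 31.5%) and the lowest complex V share in both (25.5% and 24.2%). B cells in DT had the lowest complex IV share.

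Single members departed from these profiles. Cox6a2, the heart and skeletal muscle form of a complex IV subunit, had its highest level in the plasmacytoid gate, at 996 (PBS) and 749 (DT) CPM. It was detected in 47 of 68 plasmacytoid cells in PBS and in 28 of 47 in DT. NK cells came next with 24.4 and 30.4 CPM, from 5 of 229 and 5 of 193 cells. In T cells it was found in 1 of 1049 cells of PBS and in 0 of 962 of DT, which limits the share of cells with a UMI to 0.312% but not the share that express the gene. Macrophages, which are deeper than plasmacytoid cells, gave 6 of 296 and 7 of 400 cells. Its broadly expressed partner Cox6a1 had 213 and 263 CPM in the plasmacytoid gate and 235 and 256 CPM in macrophages, so the muscle form stood beside the common form and not in its place. Cox6b2, the testis form of another complex IV subunit, was highest in alveolar macrophages, with 68.5 and 40.0 CPM from 15 of 51 and 5 of 19 cells. Monocytes had 13.9 and 9.65 CPM, T cells 6.88 and 11, and B cells 1.32 and 1.61. Cox6b1, the common form, had 674 and 645 CPM in alveolar macrophages.

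Ndufa4, named for complex I and now assigned to complex IV, had the widest range among the broadly expressed members. NK cells held 637 and 658 CPM, T cells 490 and 487, monocytes 461 and 418, B cells 355 and 293, macrophages 253 and 280, and neutrophils 134 and 117. Macrophages thus had less Ndufa4 than NK or T cells, although their nuclear share was higher. Cox8a, a small complex IV subunit, showed the reverse in neutrophils, where it had 783 and 828 CPM against 592 and 555 CPM in B cells. It supplied 8.02% and 8.50% of all nuclear member UMIs of neutrophils, against a mean of 4.67% and 4.67% over the other gates. Sdhd, a membrane anchor of complex II, supplied 0.960% and 1.10% of that sum in neutrophils, against 0.575% and 0.599%. Cox4i1, the common form of the regulatory complex IV subunit, followed the general order, with 478 and 447 CPM in neutrophils and 957 and 944 CPM in macrophages.

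Other isoforms had few UMIs in these cells. Cox4i2, the lung and hypoxia form, had 77 UMIs over all cells of both libraries, Cox7a1, the muscle form, had 120, and Atp5g2 had 76. Cox7a1 was highest in macrophages, at 5.58 and 4.37 CPM. Its common partner Cox7a2 ranged from 231 and 223 CPM in B cells to 479 and 501 CPM in macrophages, and the supercomplex factor Cox7a2l from 174 and 165 CPM in neutrophils to 362 and 338 CPM in T cells. Subunit c of the ATP synthase rotor came from Atp5g1 (42.2 and 34.1 CPM in neutrophils, 178 and 200 CPM in macrophages) and Atp5g3 (88.3 and 69.9 CPM in neutrophils, 296 and 313 CPM in macrophages). Complex II is made of the flavoprotein Sdha, the iron-sulphur protein Sdhb and the anchors Sdhc and Sdhd. Sdha had 69.6 and 70.8 CPM in neutrophils and 109 and 107 CPM in macrophages. Sdhb had 78.9 and 77.0 CPM in neutrophils and 182 and 166 CPM in macrophages, and Sdhc 25.4 and 28.8 against 98.2 and 95.8 CPM. Unlike these 3, Sdhd was not lowest in neutrophils (93.8 and 107 CPM) but in B cells (67.1 and 73.9 CPM).

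Most members chosen for having the most UMIs of their complex were lower in neutrophils than in T cells. Ndufa13, an accessory subunit of complex I, had 209 and 234 CPM in neutrophils and 378 and 385 CPM in T cells. Uqcrh had 275 and 241 CPM in neutrophils and 643 and 641 CPM in T cells, while Uqcrq, another small complex III subunit, had 198 and 223 against 314 and 311 CPM. Atp5e, the epsilon subunit of complex V, had 541 and 505 against 884 and 957 CPM, and Atp5b, its catalytic beta subunit, 236 and 221 against 545 and 508 CPM. The assembly factors Ndufaf8 and Ndufaf3 had 61.6 and 57.1, and 33.2 and 27.8 CPM, in B cells, against 32.8 and 31.1, and 23.4 and 24.7 CPM, in neutrophils. Ndufb1-ps, listed under a pseudogene name, was lowest in B cells, at 163 and 170 CPM, with 205 and 222 CPM in neutrophils. Counts of Ndufs3, Ndufs5, Ndufs6b, Ndufaf2, Ndufb4c, Ndufb9, Ndufab1-ps, Atp5g2, Atp5h, Atp5l2-ps, Cox6c2, Cox7c and Uqcrh-ps1 are uncertain. Of the short stretches of their last 500 bases, 18.3% or more occur elsewhere in the transcript set. Smaller shares were found for other members, among them Ndufb11 (18.2%), Cox5b (17.5%), Atp5g1 (15.7%), Uqcrb (14.6%) and Cox6c (13.3%). Ndufb4 and Atp5l share stretches with Ndufb4c and Atp5l2-ps, among other genes, but outside their last 500 bases. These made up 37.0% of all stretches of Ndufb4 and 6.4% of those of Atp5l.

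**Figure D3:**
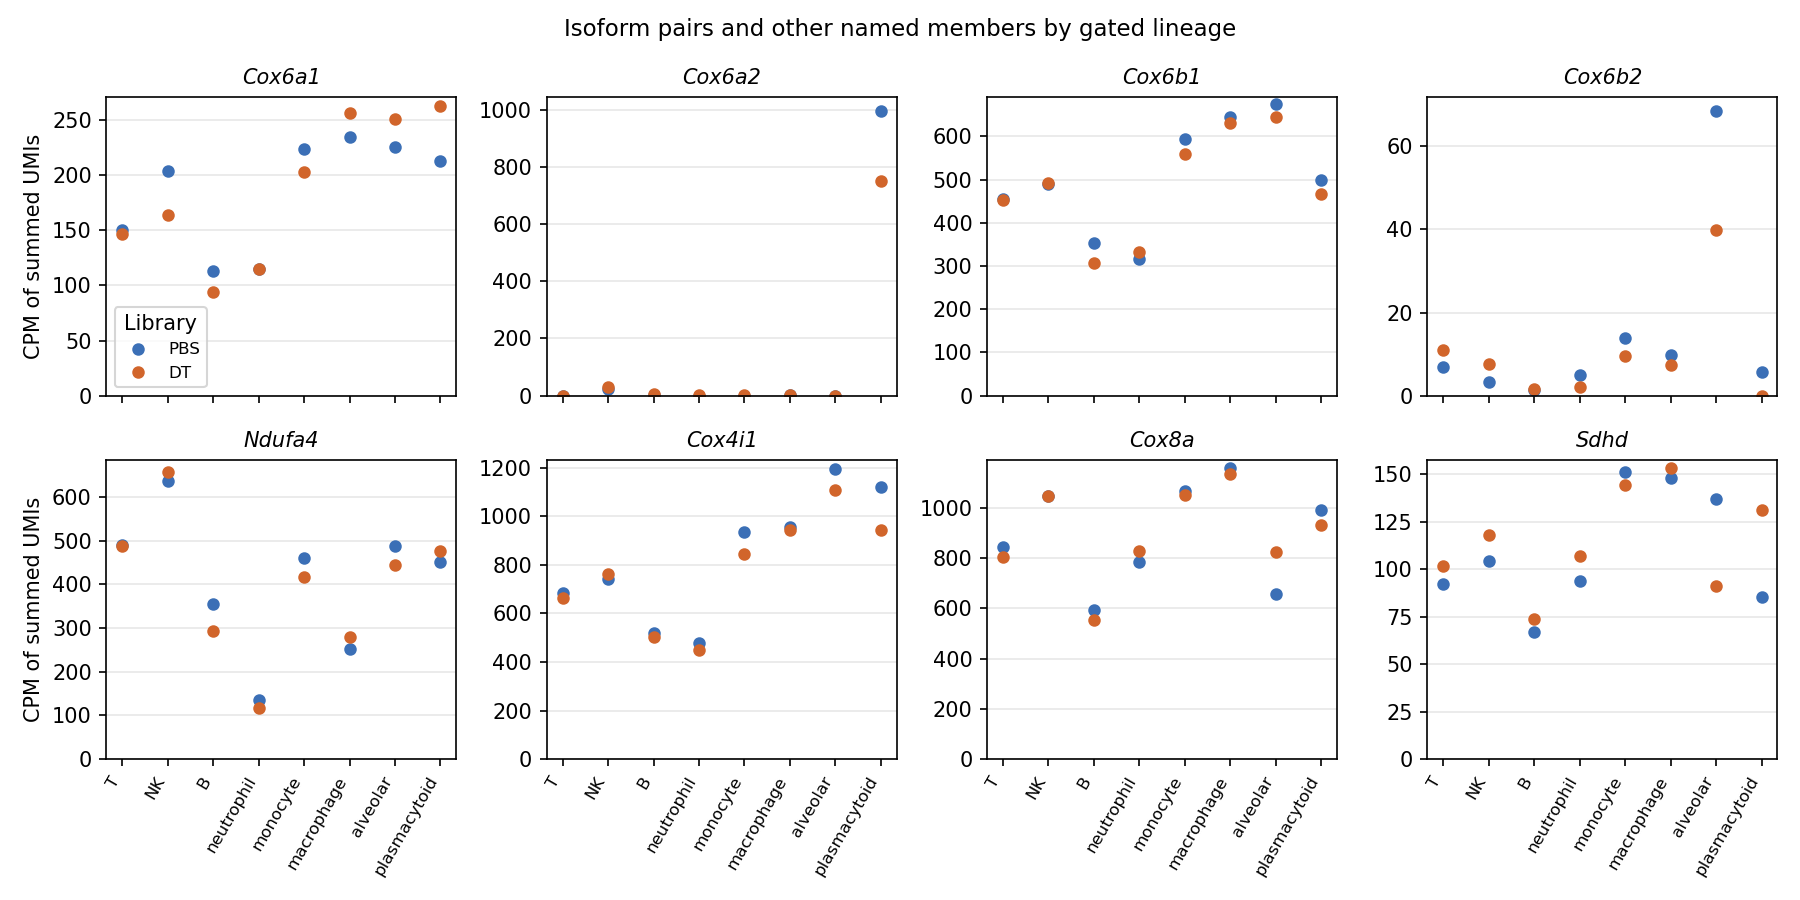
CPM of 8 named members (Cox6a1 and Cox6a2, Cox6b1 and Cox6b2, Ndufa4, Cox4i1, Cox8a, Sdhd) in each gated lineage, with a point for each library. Cox6a2 stands at 996 and 749 CPM in plasmacytoid cells, and Cox8a is not lowest in neutrophils.

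T cells with Mki67 or Top2a, genes of cycling cells, had 2.26% and 2.23% nuclear UMIs, those without 1.66% and 1.69%. The cycling cells were deeper, with a median of 8180 and 7141 UMIs against 4096 and 3968, and the contrast was not run at matched depth. Coding mt- members went the other way, at 1.10% and 1.05% against 1.21% and 1.17%. T cells with Cd4 had 1.99% and 1.98%, those with Cd8a 1.84% and 1.84%, those with Trdc 1.65% and 1.74%, and those with Foxp3 1.99% and 2.15%. Foxp3 marks regulatory T cells, and in them coding mt- members took 0.943% and 0.897%. Macrophages with Gpnmb, a gene of lipid-laden macrophages (42 and 72 cells), had 1.77% and 1.74% nuclear UMIs against 2.14% and 2.27% without it. Those with Gpnmb were deeper, with a median of 10824 and 8349 UMIs against 7975.5 and 7685.5. This contrast was not run at matched depth either. The contrasts by Mki67 or Top2a and by Gpnmb had the same direction in both libraries.

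Toxin was compared with vehicle in the 6 gates with at least 50 cells in both libraries. A ratio is the log2 of DT over PBS CPM with 5 CPM added to each, for members with at least 20 UMIs in both libraries of the gate together, and a member is called when the ratio was at least 0.32 in log2 away from 0 with at least 100 UMIs. Across all genes with at least 100 UMIs, the share called higher and lower in DT was 12.0% and 8.12% in neutrophils, 17.6% and 6.02% in B cells, 7.28% and 3.1% in T cells, 9.07% and 10.1% in NK cells, 9.76% and 9.43% in monocytes, and 9.41% and 5.6% in macrophages. The interval printed with a member is that of the ratio without the added 5 CPM, so it need not centre on the ratio beside it. All 6 comparisons use the same 2 libraries and are not independent of each other.

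Nuclear members differed little. In T cells 60 of 96 measured were higher in DT (median 0.03, all genes 0.04), with 1 called higher and 0 lower of 86. NK cells had 52 of 86 higher (median 0.04, all genes -0.00), with 3 called higher and 2 lower of 71. In B cells 25 of 93 were higher (median -0.08, all genes 0.07), with 1 and 1 of 84. Neutrophils had 42 of 90 higher (median -0.01, all genes 0.03), with 2 and 3 of 77. Monocytes had 32 of 91 higher (median -0.04, all genes 0.01), with 0 and 0 of 79. Macrophages had 65 of 96 higher (median 0.06, all genes 0.04), with 2 and 0 of 81. In each gate the share of nuclear members called was below the share of all genes called in the same direction. The neutrophil count turned with the weight given to each cell: 64 of 90 were higher when cells counted equally, and 62 of 80 among cells of 1500 to 4000 UMIs. In T cells 37 of 87 were higher among cells of 1500 to 4000 UMIs, and in monocytes 50 of 96 when each gate was taken alone. Within a sex some of the counts turned too. Among male-called cells 32 of 94 were higher in T cells, 22 of 86 in B cells, 15 of 79 in neutrophils and 41 of 87 in macrophages. Among female-called cells 83 of 93 were higher in T cells and 54 of 84 in B cells. Of these, male-called T cells and macrophages and female-called B cells changed sides, while the others stayed on the side of the whole gate. In T cells, B cells, neutrophils, monocytes and macrophages the nuclear count thus changed sides in at least 1 of these subsets.

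By complex, B cells had all 13 measured complex IV members lower in DT (median -0.11) and 30 of 41 complex I members lower, but only 4 of 10 of complex III. Their pooled nuclear share was 0.937 of that in PBS (0.926 to 0.949). Epithelial transcripts summed to 80.2 CPM in the PBS B gate and 1110 in DT, erythroid transcripts to 15.0 and 594, and the B marker list itself to 11822 and 7531; the part of these in the result was not tested. Macrophages had 32 of 41 complex I members higher (median 0.09), with a pooled complex I ratio of 1.08 (1.06 to 1.10), and their complex II was 0.971 (0.906 to 1.04). Monocytes had 3 of 14 complex IV members higher, and a pooled nuclear ratio of 0.969 (0.955 to 0.983). Their erythroid list summed to 5.36 CPM in PBS and 1743 in DT, the macrophage list to 968 and 1840 and the NK list to 22.0 and 409, and the part of these in the result was not tested.

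Few single members passed the fold. In T cells this was Ndufaf7, a methyltransferase needed for complex I assembly, at 21.2 CPM in PBS and 29.4 in DT (0.39, interval 0.12 to 0.83). NK cells had Atp5k at 180 and 241 CPM (0.41, 0.12 to 0.73), Atp5md, a small ATP synthase subunit, at 60.5 and 81.1 (0.39, -0.12 to 0.96), and Ndufa8 at 149 and 196 (0.39, 0.06 to 0.74). In the same cells Ndufa5 had 114 and 87.5 CPM and Ndufv2, a core subunit of complex I, 153 and 117 (-0.38, -0.78 to -0.00). The intervals of Atp5md and Ndufa5 included 0. In B cells Atp5k went the other way, at 138 and 105 CPM (-0.38, -0.59 to -0.20), and Atp5l, subunit g of the ATP synthase, had 10.9 and 16.8 CPM from 58 and 52 UMIs. Neutrophils had Ndufs1, a core subunit of complex I, at 21.9 and 31.7 CPM (0.45, 0.06 to 1.03) and Ndufs7, another core subunit, at 67.6 and 87.8 (0.35, 0.10 to 0.66). They also had Ndufs8, again a core subunit, at 48.5 and 34.1 CPM (-0.45, -0.89 to -0.13), Ndufa9 at 21.1 and 14.7, and Uqcrc1, a core protein of complex III, at 59.8 and 44.6 (-0.38, -0.75 to -0.09). Core subunits of complex I thus lay on both sides in the same gate. In macrophages Ndufs8 was higher in DT, at 106 and 135 CPM (0.34, 0.14 to 0.57), as was Atp5md, at 91.9 and 118 (0.34, 0.13 to 0.59). No nuclear monocyte member passed, and those nearest were Ndufv2 (187 and 151 CPM, -0.30) and Atp5b (579 and 470 CPM, -0.30). Thinned to 1000 UMIs per cell, Atp5k in NK cells turned to -0.28 and Ndufs8 in macrophages to -0.05. Among male-called cells Ndufs1 in neutrophils turned to -0.34 and Atp5l in B cells to -0.26.

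The next members at either end of each gate stayed inside the threshold. T cells had the complex I subunit Ndufa12 at 59.1 CPM in PBS and 72.8 in DT (0.28) and Uqcrh-ps1, a pseudogene symbol, at 54.0 and 66.4 (0.28). At their other end stood the complex I assembly factors Ndufaf2 (26.3 and 21.8 CPM, -0.22) and Ndufaf4 (43.2 and 37.4 CPM, -0.19) and Atp5l (15.4 and 13.2 CPM, -0.16). Atp5l, called higher in B cells from few UMIs, was thus lower in T cells. It shares stretches with Atp5l2-ps and other genes, so its counts may be uncertain in both gates. NK cells had Cox6a1 at 204 and 164 CPM (-0.31). B cells had Ndufc2, a complex I subunit, at 115 and 93.6 CPM (-0.29), Ndufab1, the acyl carrier protein of complex I, at 32.5 and 25.8 (-0.28), and Ndufb3, another subunit of complex I, at 119 and 133 (0.15). Uqcrh-ps1 had 40.4 and 46.8 CPM in B cells (0.19), the same side as in T cells. Neutrophils had Cox7a2 at 240 and 281 CPM (0.23, 0.08 to 0.38), an interval above 0. Monocytes had Cox7c, a complex IV subunit, at 116 and 140 CPM (0.26), Sdhc at 72.4 and 86.9 (0.25), Ndufaf7 at 33.8 and 41.8 (0.27) and Atp5o, the stalk subunit of complex V, at 167 and 137 (-0.28). Ndufaf7 was therefore on the higher side in monocytes, from 63 and 65 UMIs, as in T cells. Other gates did not share this side. Ndufaf7 was lower in DT in NK cells (37.18 and 31.69 CPM), neutrophils (26.18 and 22.91) and macrophages (16.75 and 11.94). In B cells it was level (18.98 and 19.05 CPM). Macrophages had Ndufb7, a complex I subunit, at 256 and 317 CPM (0.30, 0.17 to 0.45) and Ndufs3, a core subunit, at 29.4 and 23.0 (-0.30, -0.82 to 0.12). Their complex V members Atp5d and Atp5c1, the delta and gamma subunits of the central stalk, had 416 and 366 CPM (-0.18, -0.30 to -0.07) and 293 and 262 CPM (-0.16, -0.30 to -0.02).

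Sub-gates separated some of these counts. Among T cells with Foxp3, 66 of 84 nuclear members were higher in DT (median 0.13, all genes 0.04), against 53 of 94 with Cd4 and 51 of 93 with Cd8a. Foxp3 cells were deeper in DT, their median depth being 4827.5 UMIs against 3847 for vehicle. Cells with Cd4 (4125 against 4241) and with Cd8a (5287 against 5581.5) were slightly shallower in DT. The part of depth in these counts was not tested. Cycling T cells had 49 of 92 higher and the others 59 of 95. Macrophages without Gpnmb had 67 of 95 higher (median 0.10) and those with Gpnmb 37 of 82 (median -0.02). The differences between sub-gates were not tested.

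**Figure D4:**
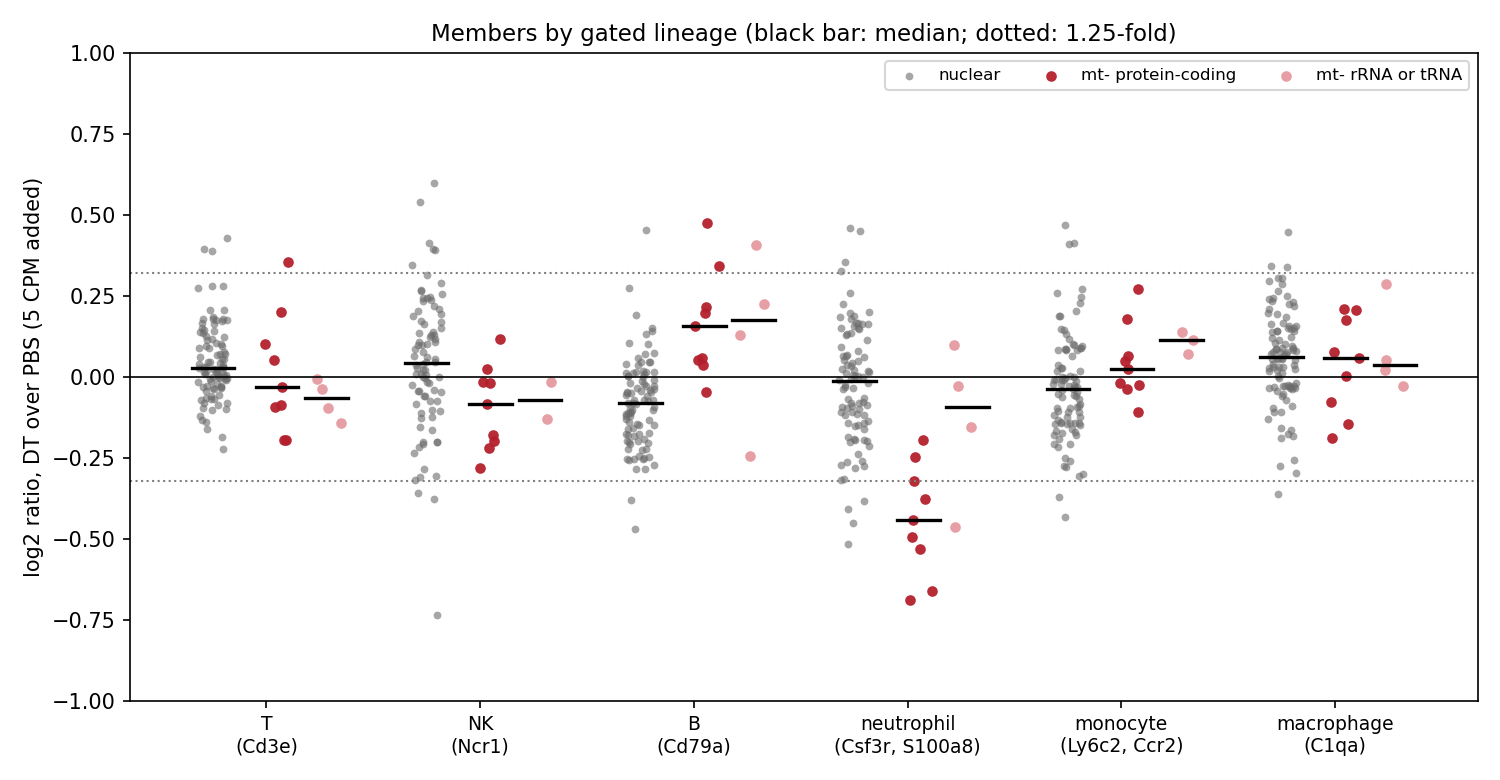
log2 ratio of DT over PBS for each measured member in the 6 compared lineages, nuclear and mt- members apart, with dotted lines at the threshold of 0.32 and black bars at the medians. Nuclear members centre near 0 in every lineage, while all 9 coding mt- members lie below 0 in neutrophils and 8 of 9 lie above 0 in B cells.

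Coding mt- members were lower in DT neutrophils, all 9 measured (median -0.44), and 6 were called lower of 11 mt- members with at least 100 UMIs. That is 54.55%, against 8.12% of all neutrophil genes called lower. mt-Nd2, a complex I subunit, had 803 CPM in PBS and 496 in DT (-0.69, -0.79 to -0.60). mt-Nd6, the complex I subunit on the light strand, had 145 and 89.6 CPM (-0.66), and mt-Nd4 had 1010 and 698 CPM (-0.53, -0.61 to -0.45). mt-Cytb, the complex III subunit, had 1736 and 1231 CPM (-0.49, -0.56 to -0.43). mt-Nd3 had 122 and 88.4 CPM (-0.44) and mt-Nd1 562 and 431 CPM (-0.38). The other 3 were not called. mt-Nd5 had 223 and 178 CPM (-0.32, short of the threshold before rounding), mt-Nd4l 187 and 157 (-0.25) and mt-Co1 413 and 360 (-0.20). The ribosomal RNAs differed less, with mt-Rnr2 at 16278 and 14611 CPM (-0.16) and mt-Rnr1 at 3008 and 2950 (-0.03). Pooled, coding mt- UMIs in DT stood at 0.717 of their PBS share (0.700 to 0.735), ribosomal RNA at 0.911 and nuclear members at 0.997 (0.981 to 1.01). The chromosome 1 copies, which are outside the members, gave 0.759 (0.748 to 0.770).

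The same direction was found in both neutrophil states that could be gated. Neutrophils with Ccl3 or Ccrl2, known in activated neutrophils, were 473 in PBS and 805 in DT, 59.4% and 67.7% of the gate. Their coding mt- share was 0.571% and 0.388%, with 0 of 9 members higher (median -0.52). Neutrophils with neither gene had 0.421% and 0.330%, again with 0 of 9 higher (median -0.32). Nuclear members in the first group took 1.01% and 1.01%, and in the second 0.910% and 0.865%. Set against each other inside a library, cells with Ccl3 or Ccrl2 were higher for 43 of 65 nuclear members in both libraries and lower for 4, and for 1559 of 3158 of all genes. Among the mt- members 8 of 11 were higher and the 2 ribosomal RNAs lower. In the median neutrophil the coding share was also lower in DT, as given above, while the nuclear share was higher, at 0.671% and 0.750%.

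Other measures differed in the neutrophil gate as well. Cytosolic ribosomal protein UMIs stood at 0.902 of their PBS share in DT, and the nuclear RNA Malat1 at 0.923. The epithelial list summed to 1306 CPM in PBS and 29.4 in DT, the macrophage list to 257 and 573, and the neutrophil list to 63783 and 57996. The part of these in the result was not tested. With cells holding any epithelial, erythroid or stromal UMI left out, the pooled coding log2 ratio was -0.40 in place of -0.48, and 0 of 12 mt- members were higher. It was -0.80 among the 254 and 211 neutrophils called male. Female-called neutrophils were 6 in PBS and 88 in DT, too few for a value. When the neutrophil gate was taken without removing cells of other gates it was -0.245.

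**Figure D5:**
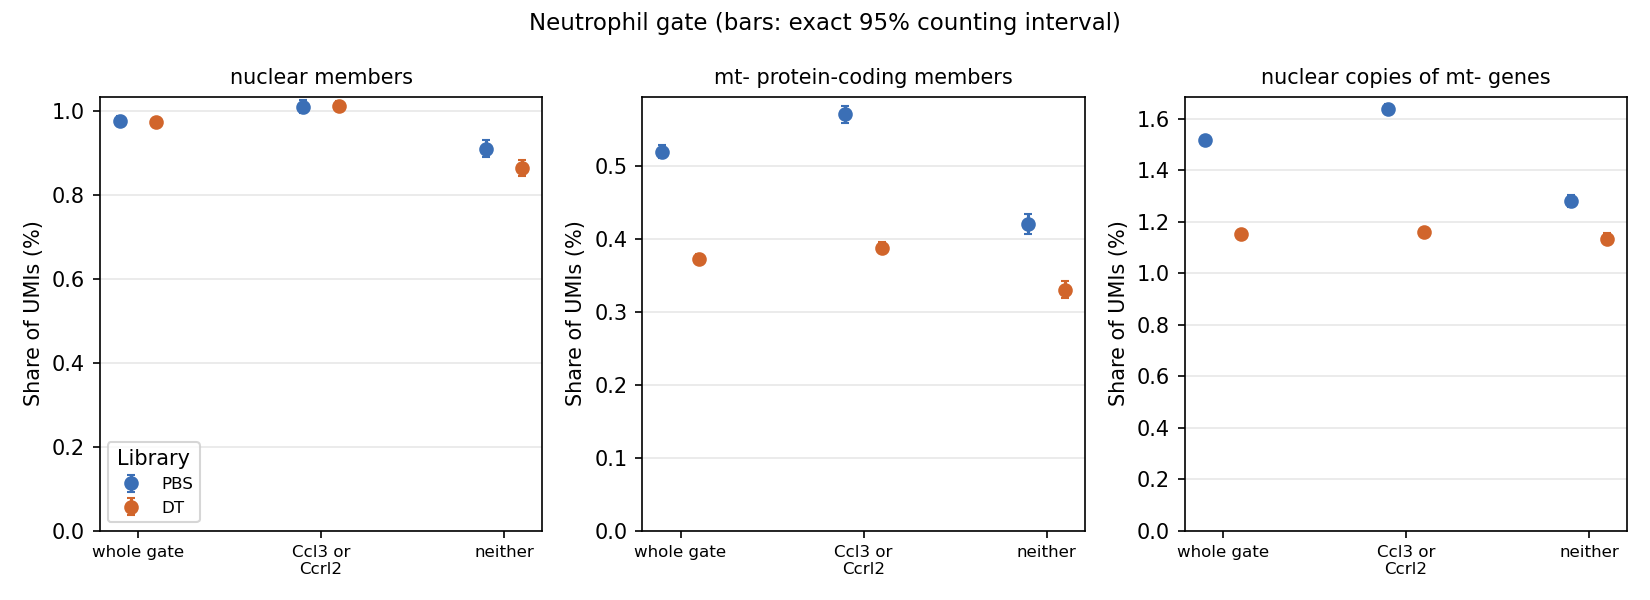
Percent of UMIs from nuclear members, coding mt- members and the chromosome 1 copies in the whole neutrophil gate and by Ccl3 or Ccrl2 state, PBS and DT libraries, with 95% counting intervals. The coding share is lower in DT in both states (0.571% and 0.388%, 0.421% and 0.330%).

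In B cells 8 of 9 measured coding mt- members were higher in DT. mt-Nd4l had 503 CPM in PBS and 702 in DT (0.48, 0.40 to 0.56) and mt-Nd5 612 and 778 (0.34, 0.27 to 0.42). These 2 were the members called higher of 12 mt- members with at least 100 UMIs, 16.7%, which is near the 17.6% of all B cell genes. mt-Nd1 had 1334 and 1550 CPM (0.22), while mt-Nd2 was near level at 2333 and 2257 CPM (-0.05). mt-Rnr1 had 3103 and 3625 CPM (0.22). The pooled coding ratio was 1.07 (1.05 to 1.08), that of ribosomal RNA 1.11 and that of the chromosome 1 copies 1.04. In the median B cell the coding share was near level, at 1.51% in PBS and 1.52% in DT, against 1.43% and 1.53% pooled. The part of the epithelial and erythroid transcripts of the DT B gate, given above, in this result was not tested. In T cells 4 of 9 coding members were higher, mt-Nd4l was called (440 and 564 CPM, 0.35, and -0.05 in female-called cells), and mt-Nd2 had 1889 and 1651 CPM (-0.19). That 1 call of 12 mt- members (8.33%) is near the 7.28% of all T cell genes. NK cells had 2 of 11 mt- members higher, monocytes 8 of 12 and macrophages 9 of 13, with none called. Their pooled coding ratios were 0.921 (0.892 to 0.951), 1.008 (0.986 to 1.031) and 0.977 (0.963 to 0.992). In macrophages the pooled ratio thus lay on the other side from the count of members.

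The coding mt- members did not keep one ratio to each other between the libraries. The log2 ratio of mt-Nd4l exceeded that of mt-Nd2 in all 8 gates, by 0.29 in monocytes to 0.55 in T cells. The values of mt-Nd4l are uncertain, since 98.8% of its 50-base windows recur in Gm10222, another pseudogene of the chromosome 1 stretch that was not analysed here. The ratio of mt-Nd5 also exceeded that of mt-Nd2 in all 8 gates, by 0.20 in monocytes to 0.46 in plasmacytoid cells. Of the windows of the last 500 bases, 12.6% recur elsewhere for mt-Nd5 and 17.7% for mt-Nd2. Neither side of this comparison is therefore free of copies. In each gate mt-Nd1, mt-Nd4l and mt-Nd5 lay above the pooled coding ratio and mt-Nd2 and mt-Nd6 below it. The gates share the 2 libraries, so this is a property of those libraries seen 8 times.

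Other mitochondrial genes were read as context from lists of the pathway. Mitochondrial ribosome genes were higher in DT for 37 of 78 in T cells, 36 of 72 in NK cells, 22 of 78 in B cells, 33 of 72 in neutrophils, 37 of 77 in monocytes and 51 of 78 in macrophages. Import genes gave 9 of 23, 12 of 22, 8 of 23, 16 of 23, 13 of 23 and 20 of 23 in the same order. Citric acid cycle genes gave 4, 9, 6, 8, 4 and 8 of 13. Complex IV assembly genes gave 8 of 15, 6 of 12, 5 of 15, 4 of 12, 5 of 12 and 6 of 15, and those of complexes II and III 5 of 10, 1 of 8, 3 of 10, 4 of 7, 2 of 8 and 5 of 9. Genes that copy and transcribe mitochondrial DNA gave 8 of 12, 4 of 6, 4 of 12, 2 of 7, 3 of 9 and 7 of 11. Electron carriers gave 1 of 6, 3 of 4, 2 of 6, 3 of 6, 3 of 6 and 5 of 6, and regulators 5 of 7, 1 of 5, 3 of 7, 2 of 6, 5 of 7 and 3 of 7. Cytosolic ribosomal protein genes, which are not mitochondrial, gave 47 of 96, 63 of 89, 36 of 96, 22 of 94, 51 of 93 and 63 of 95. Over all genes measured the share higher was 58.1%, 49.7%, 60.5%, 55.1%, 52.2% and 56.4%.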

How the data were processed

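The 2 tables of gene values per cell, of 1 library each, PBS and DT, were used. The authors deposited log2 values, which undone as 2 to the value minus 1 sum to the same total in each cell, that is log2(CPM + 1). Partek, Seurat, STAR and mm10 are named in the submitters' processing notes, without roles or versions; the sources used here do not give strand settings, annotation or the authors' cell filters. Counts of UMIs were recovered from the deposited log2 values by the value of 1 molecule in each cell, and 100% came out whole within 1%. The design table assumed counts, and the recovered UMIs served for them.

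Cells with at least 200 genes and 500 UMIs were kept, and no doublet caller was run. Cells meeting more than 1 gate were left out or placed by the order of gates given above. The libraries share 8 barcodes. UMIs were summed per gate and library. Shares carry Clopper-Pearson intervals and ratios exact conditional binomial ones, on summed UMIs without added CPM. Only the ratios of single genes have 5 CPM added. A called gene has at least 100 UMIs and a log2 ratio of at least 0.32 in size. With 1 library per group there is no test, and the 4 mice of a group cannot be separated. Copies were found from shared 50-base windows of GENCODE transcripts. Python 3.11.15, numpy 2.4.6, scipy 1.17.1 and pandas 2.3.3 were used, and the ratio code was tested on simulated data.

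Genes named are all mt- members, isoform sets and Sdh genes, the 2 members with most UMIs per complex, the 3 highest and 3 lowest nuclear ratios per gate and the 3 widest spreads between gates. The Cox8a and Sdhd shares in neutrophils and the genes with uncertain counts were singled out after their values were seen. The members, lists and gates were chosen with earlier results of these data known.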

Additional observations from a re-analysis of the deposited data

Results flagged for a closer look

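The chromosome 1 copies of mitochondrial genes are outside the members and yet held 1036580 UMIs in the PBS library and 857863 in DT, more than all mt- columns together in both. They stand in the tables under pseudogene names, so a filter on the mt- prefix leaves them out.

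The pooled log2 ratio of coding mt- UMIs, DT over PBS, was -0.48 in neutrophils and 0.092 in B cells. All 9 coding members measured in neutrophils were lower in DT, and 8 of 9 in B cells were higher. In the median B cell the coding share was near level, at 1.51% in PBS and 1.52% in DT. The difference between these gates was not tested, since each group is 1 library.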

How the results depend on the processing

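No paired analysis was possible because each group is 1 library. Of 226 recomputed counts of members higher in DT, 197 stayed within 1.5 times the count reported and 29 did not. The exceptions were as follows. NK mt- members gave 5 of 12 with each gate taken alone, 5 of 11 with 2 UMIs of the gate gene, with mean deposited log2 values or with cells of at most 8% mt- and copied UMIs, and 4 of 11 in cells of 1500 to 4000 UMIs, without the 6% of cells with most UMIs, with neutrophils gated on Csf3r alone, or without cells with epithelial, erythroid or stromal UMIs. Neutrophil mt- members gave 3 of 14 with each gate alone, 2 of 14 with Csf3r alone, 2 of 12 in male-called cells, 0 of 11 in cells of 1500 to 4000 UMIs or with 100 UMIs per member, and 0 of 12 without cells with epithelial, erythroid or stromal UMIs. Neutrophil nuclear members gave 64 of 90 with each cell the same weight, 15 of 79 in male-called cells and 22 of 92 with Csf3r alone, and turned also to 55 of 78 thinned to 1000 UMIs. T nuclear members gave 37 of 87 in cells of 1500 to 4000 UMIs and 32 of 94 in male-called cells, and T mt- members 8 of 12 in that range and 1 of 12 in female-called cells. B nuclear members gave 8 of 93 with median-of-ratios scaling, 2 of 93 with mean log2 values and 54 of 84 in female-called cells, and B mt- members 6 of 13 with mean log2 values. Monocyte nuclear members gave 50 of 96 with each gate alone and 10 of 91 with mean log2 values, their mt- members 4 of 12 with the latter, and macrophage nuclear members 41 of 87 in male-called cells. The cause was not tested for any of these. Of 4170 recomputed ratios of single members 417 changed sign, most of them of members inside the threshold. Of the 465 that belong to members past it, 5 did: Atp5k in NK cells (-0.28) and Ndufs8 in macrophages (-0.047) thinned to 1000 UMIs, Atp5l in B cells (-0.26) and Ndufs1 in neutrophils (-0.34) in male-called cells, and mt-Nd4l in T cells (-0.048) in female-called cells. The pooled coding mt- log2 ratio of neutrophils ran from -0.80 in male-called cells to -0.245 with each gate alone, and that of B cells from 0.01 to 0.23. Values that needed fewer than 50 cells in a library, such as male-called NK cells or female-called neutrophils, were not run. The alternatives on Csf3r alone, on the added copies, on the 8% limit and on epithelial, erythroid or stromal UMIs were chosen after seeing the data.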
